A study of Mus musculus with 15 samples.

Results

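The nuclear genes for the proteins of the mitochondrial ribosome were followed from the germinal vesicle (GV) oocyte to the metaphase II (MII) egg. A gene was taken as a member where the platform annotation gave a probe set exactly 1 symbol that starts with Mrpl or Mrps and a digit, and where a gene had more than 1, the brightest by mean over the 15 arrays stood for it. This gave 76 genes of the 18193 that the array names by a single symbol, 47 of the large subunit (Mrpl) and 29 of the small subunit (Mrps), with 156 probe sets among them. The choice used no difference between groups.

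The mitochondrial ribosome translates the few proteins that mitochondrial DNA encodes, all of them subunits of the respiratory chain or ATP synthase. Its RNA comes from mitochondrial DNA, but every one of its proteins is made in the cytosol from a nuclear gene and imported. Some have a counterpart in the bacterial ribosome, and others were added during the evolution of mitochondria. The oocyte holds a very large stock of mitochondria, and because transcription has largely stopped by the end of its growth, meiotic maturation runs on messenger RNA stored beforehand.

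All samples were oocytes of female B6D2F1 mice, a cross of C57BL/6 and DBA/2, and each array held poly(A)+ RNA of a pool of 150 oocytes. Adult mice of 7 to 8 weeks gave GV oocytes (2 arrays), MII eggs matured in vivo (3 arrays) and MII eggs matured in vitro (2 arrays). Peripubertal mice of 26 days (d26) gave MII eggs matured in vivo (2 arrays) and in vitro (3 arrays), and prepubertal mice of 20 days (d20) gave MII eggs matured in vitro (3 arrays). Every female had received PMSG, a gonadotropin that drives follicle growth. GV oocytes were taken from the ovary 48 h later, those for in vitro maturation spent 16 h in Gmat medium, and in vivo eggs followed hCG, the ovulatory stimulus, given at 48 h. Hyaluronidase was used on all of them to strip the cumulus cells. No GV oocytes of young mice were analysed here, so each comparison with GV rests on the same 2 adult GV arrays.

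The labels do not state whether pools of a group hold oocytes of different animals. The p-values therefore reflect pool-to-pool spread, which may be technical. RNA was captured by its poly(A) tail, so a loss of the transcript and a shortening of its tail cannot be told apart, and neither can less RNA per oocyte and fewer oocytes yielding RNA. Levels are log2 intensities after quantile normalization, which gives every array the same distribution. Before it, the 2 GV arrays were the brightest, with 9819 and 9696 probe sets above an intensity of 200 against 2615 to 6734 in the MII arrays. The 4 arrays with fewer than 4000 such probe sets, called dim below, comprise replicates 2 and 3 of d26 in vitro MII, replicate 2 of adult in vitro MII and replicate 1 of adult in vivo MII. On all 15 arrays, 10 or 11 of 11 oocyte marker genes lay above the filter level of 3.07; their median was 11.99 and 12.63 in GV and 8.92 to 9.86 in MII. The summed intensity of 13 granulosa and cumulus markers was 701 and 731 in GV and 167 to 705 in MII. For 8 leukocyte markers the sum was 105 and 174 in GV and 36.2 to 458 in MII, and for 5 oviduct markers 99.8 and 116 in GV and 12.1 to 722 in MII. By group, the leukocyte sum was 175, 458 and 228 in adult in vivo eggs and 94.3 and 59.5 in adult in vitro eggs, and the oviduct sum 140, 228 and 722 against 85.7 and 12.1. The ratio of 3' to 5' signal of Gapdh, a sign of RNA integrity and amplification, was 13.7 and 17.7 in GV, 2.27 to 26.8 on the other arrays, and 82.3 and 68 in d26 in vivo eggs. The part of brightness, of these markers and of this ratio in the results was not tested.

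Between the GV oocyte and the MII egg, many mitoribosomal transcripts of both subunits fell. Over the genes of the large subunit the median log2 level was 7.32 and 7.56 on the GV arrays and between 5.17 and 5.89 on the 13 MII arrays. For the small subunit it was 7.36 and 7.57 in GV and between 5.23 and 6.33 in MII. In each subunit both GV arrays stood above every MII array, whatever the age or the route of maturation. The members above the filter level numbered 75 and 76 of 76 on the GV arrays and 55 to 70 on the MII arrays. The lowest of these, 55, 63, 63 and 66, were on the 4 dim arrays, and the other MII arrays had 67 to 70. Of all probe sets 58.5% were above that level on every array, a share that quantile normalization fixes.

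**Figure D1:**
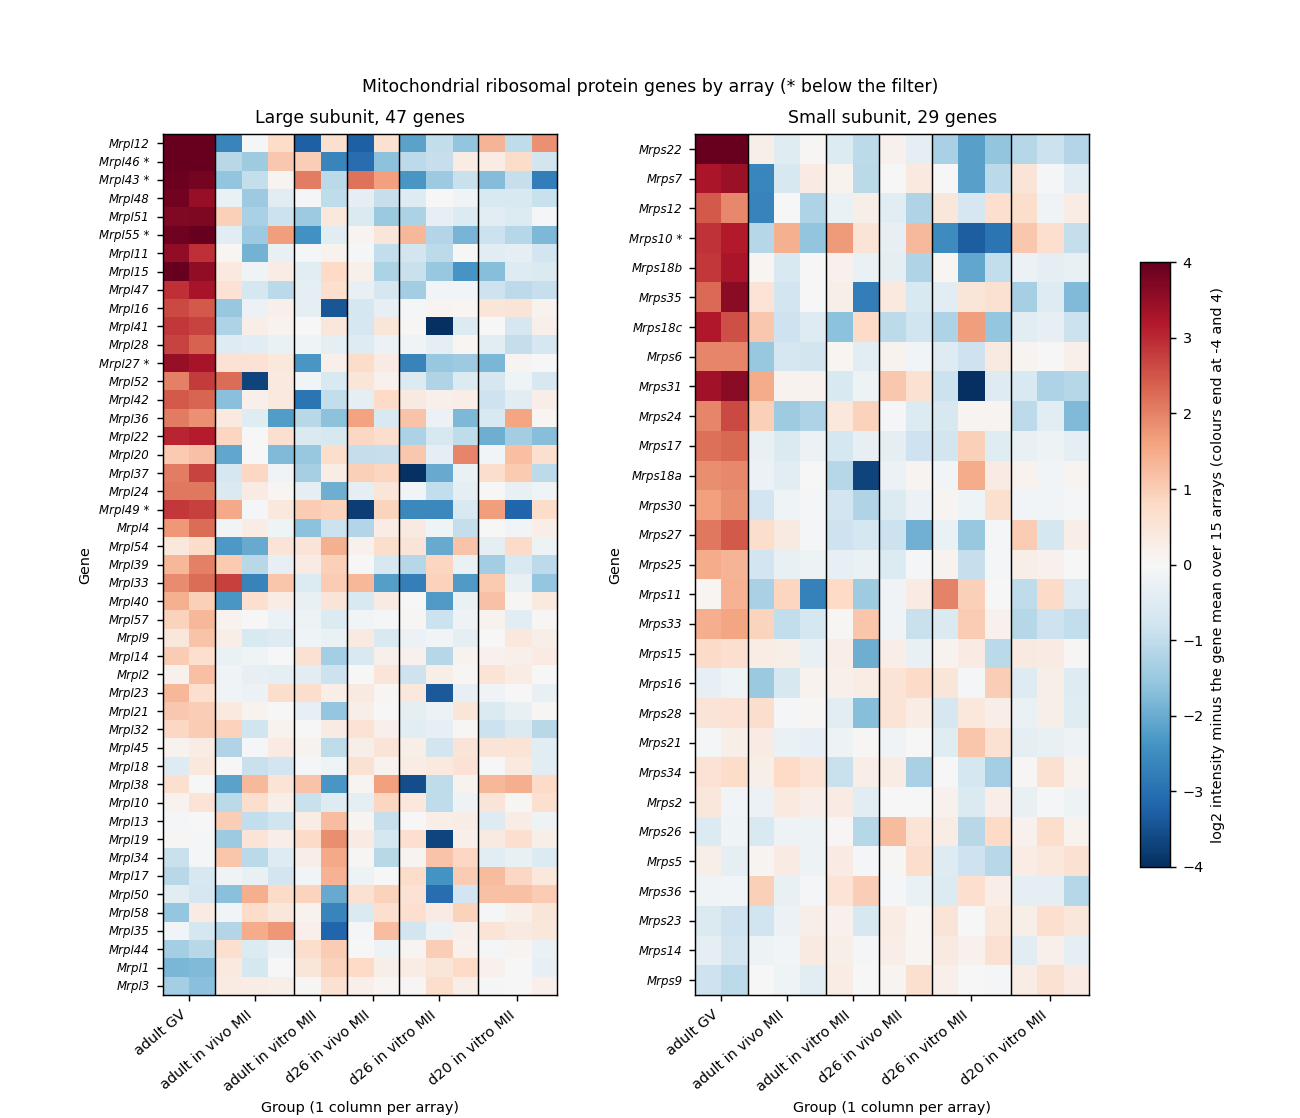
log2 intensity of each gene on each of the 15 arrays, minus the gene's mean over the arrays, with genes in rows ordered by their difference between adult in vivo MII and GV and arrays in columns by group; asterisks mark the 6 genes below the filter. The GV columns are high for the upper rows of both subunits and low for Mrpl3, Mrpl1 and Mrpl44 at the foot of the large subunit.

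With limma, 70 members passed the filter on low signal, 42 large and 28 small. In vivo maturation of adult oocytes was accompanied by lower signal of 16 of the 42 large subunit genes and 15 of the 28 small subunit genes, or 38.1% and 53.6%, where 11.1% of all 22519 tested probe sets were called lower. Higher signal was called for 3 large and 0 small subunit genes, against 15.7% of all probe sets. After in vitro maturation 15 large and 14 small subunit genes were lower, against 11.7% of all probe sets, and 3 large and 1 small subunit gene were higher, against 16% of all. Subunits were set by symbol. The small subunit counts therefore include Mrps18a and Mrps30, lower in both comparisons, whose proteins are placed in the large subunit. Mrps36, assigned to another complex, is among the genes tested and was not called. At an unadjusted p below 0.05, 8131 probe sets of all differed in the in vivo comparison and 8375 in the in vitro one.

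The median log2 difference of the tested members was -1.40 for the large and -1.82 for the small subunit in vivo, and -1.28 and -1.63 in vitro, while that of all tested probe sets was 0.24 and 0.13. With the 6 members below the filter included, the large subunit median was -1.81 in vivo and -1.52 in vitro, and the small subunit median -1.84 and -1.63. Both comparisons share the GV arrays. In both, 26 members were lower, 13 of each subunit, and 32 were called in neither. The shares of all tested probe sets lower in both or called in neither were not counted, so these numbers have no background. No member was called in opposite directions.

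**Figure D2:**
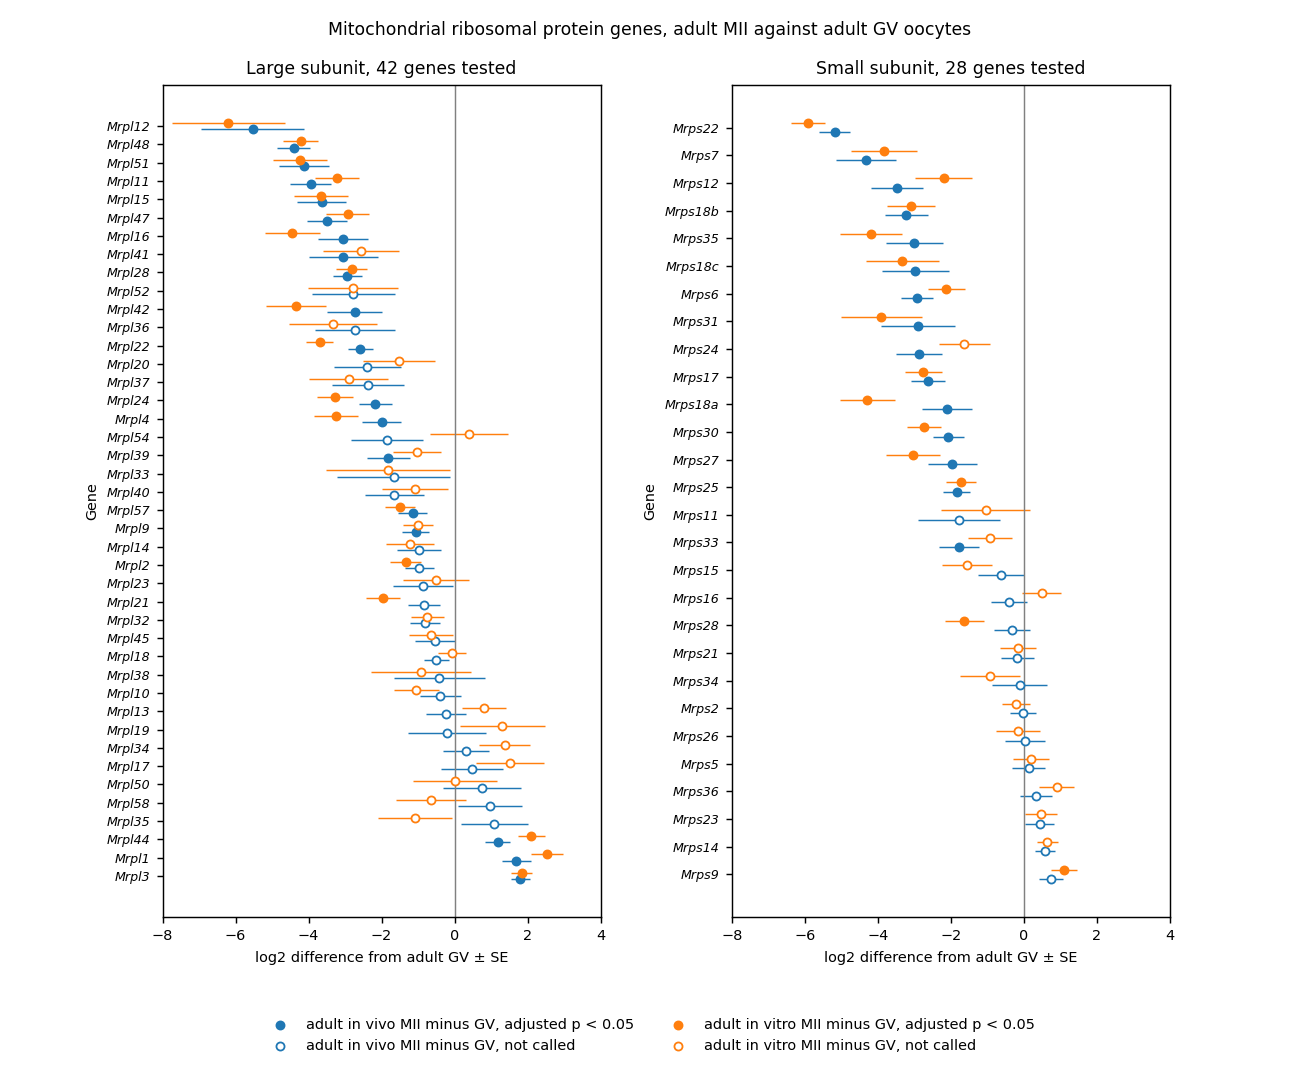
log2 difference from adult GV with its standard error (bars) for the 42 large and 28 small subunit genes tested, in vivo MII in blue and in vitro MII in orange; filled points passed an adjusted p of 0.05. The differences run from -6.19 for Mrpl12 to 2.52 for Mrpl1, both in vitro, and filled points lie mostly on the left.

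Among large subunit genes the fall was steepest for Mrpl12, which encodes the protein of the flexible stalk that recruits translation factors. Its level was 7.70 and 8.49 in GV, 0.57, 3.17 and 3.95 in adult in vivo MII and -0.05 and 3.86 in adult in vitro MII. On the other arrays it lay between -0.04 and 5.06, and 7 of the 13 MII arrays were below the filter level, so the size of its fall is poorly bounded. The means of 4 MII groups were below that level too. Mrpl12 thus passed the filter largely through its high GV readings, and its calls carry that limit. The log2 difference was -5.53 (SE 1.42, adjusted p = 0.009) in vivo and -6.19 (SE 1.56, adjusted p = 0.00765) in vitro, by limma. Without adult in vitro replicate 1 the in vitro value was -4.25 (adjusted p = 0.0854).

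Mrpl48, a protein added in mitochondria, gave a far tighter measurement. It read 10.49 and 10.10 in GV, 6.34, 5.17 and 6.15 in adult in vivo MII, 6.57 and 5.59 in adult in vitro MII, 6.23 and 5.70 in d26 in vivo MII, 6.10, 6.59 and 6.49 in d26 in vitro MII and 5.71 to 6.01 on the d20 arrays. The GV arrays stood well apart, and the MII group means spanned only 0.51. The difference was -4.41 (SE 0.45, adjusted p = 1.3e-05), a 21.2-fold lower level in vivo, and -4.21 (SE 0.49, adjusted p = 4.4e-05) in vitro.

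Mrpl51, another mitochondria-specific subunit, read 9.32 and 9.37 in GV and 4.16 to 6.58 on the 13 MII arrays, with differences of -4.12 (SE 0.68) and -4.23 (SE 0.74). Mrpl11, which forms the base of the stalk, read 9.89 and 9.29 in GV and 4.47 to 6.49 in MII, with differences of -3.94 (SE 0.55) and -3.21 (SE 0.61). Mrpl15, a protein of the subunit core, read 8.64 and 8.08 in GV and 2.17 to 5.33 in MII, with differences of -3.64 (SE 0.67) and -3.65 (SE 0.74). For these 3 genes the GV and MII arrays did not overlap, and all 6 differences were called by limma, with adjusted p between 0.000141 and 0.00188.

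Mrpl47, a protein near the exit of the peptide tunnel, read 9.27 and 9.64 in GV and 4.98 to 7.04 in MII, and fell by 3.49 in vivo and 2.93 in vitro on the log2 scale on its brightest probe set. With its probe sets averaged the in vivo difference of Mrpl47 was -0.81 (adjusted p = 0.45, limma), its other tested probe sets standing at 0.43 and 0.64. Mrpl16, a counterpart of a bacterial protein close to the catalytic centre, read 9.19 and 9.01 in GV and 3.13 to 7.06 in MII, and its fall was 3.06 (SE 0.69) in vivo and 4.45 (SE 0.75) in vitro. Mrpl42, a mitochondria-specific protein, read 6.93 and 6.82 in GV and 1.55 to 5.28 in MII, with a difference of -2.74 in vivo and -4.35 in vitro. The lowest reading of Mrpl16 was on adult in vitro replicate 2, which is dim, and that of Mrpl42 on adult in vitro replicate 1, which is not. For Mrpl42 that reading and the adult in vitro mean were below the filter level.

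In the small subunit Mrps22, a mitochondria-specific protein, fell most. It read 10.95 and 11.44 in GV, 6.31, 5.59 and 6.12 in adult in vivo MII and 5.53 and 5.01 in adult in vitro MII. The d26 eggs read 6.24 and 5.69 after maturation in vivo and 4.76, 3.89 and 4.50 in vitro, and the d20 eggs 4.92, 5.21 and 4.91. The lower of the GV arrays was 4.64 above the highest MII array. Its difference of -5.19 (SE 0.43, adjusted p = 3.4e-06) in vivo corresponds to a 36.4-fold lower level, and that of -5.92 (SE 0.47, adjusted p = 3.4e-06) in vitro to a 60.6-fold lower level, by limma.

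Mrps7, which organises the head of the small subunit, read 8.04 and 8.24 in GV and 2.16 to 5.29 in MII. Its differences were -4.33 (SE 0.81, adjusted p = 0.00112) in vivo and -3.84 (SE 0.89, adjusted p = 0.00472) in vitro. Mrps35, a mitochondria-specific protein, read 8.03 and 9.36 in GV and 3.00 to 6.36 in MII, and its differences were -3.01 (SE 0.78, adjusted p = 0.00932) and -4.20 (SE 0.85, adjusted p = 0.00187). Both genes were called in both comparisons by limma, and no MII array reached either GV array.

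The 3 paralogs of bacterial protein S18 fell in both comparisons. Mrps18b read 7.97 and 8.43 in GV and 3.08 to 5.32 in MII, and differed by -3.23 (SE 0.59, adjusted p = 0.000944) in vivo and -3.10 (SE 0.65, adjusted p = 0.00234) in vitro. Mrps18c read 8.53 and 7.91 in GV and 3.68 to 7.00 in MII, with differences of -2.97 (SE 0.91, adjusted p = 0.024) and -3.33 (SE 0.99, adjusted p = 0.0208). Mrps18a, whose protein sits in the large subunit in structures despite its symbol, read 6.61 and 6.67 in GV, 4.53, 4.32 and 4.76 in adult in vivo MII, and 3.63 and 1.06 in adult in vitro MII. The differences of Mrps18a were -2.10 (SE 0.69, adjusted p = 0.0347) and -4.29 (SE 0.76, adjusted p = 0.000714) by limma. The in vitro reading of 1.06 and the mean of that group were below the filter level, so the size of the in vitro fall is poorly bounded. The in vivo call of Mrps18a was lost on leaving out either GV array or any of the 3 in vivo arrays. Without single in vivo arrays the adjusted p was between 0.0551 and 0.0814 by limma. It was also lost without d20 in vitro replicate 1 (adjusted p = 0.0501) and without a filter (adjusted p = 0.0666). That of Mrps18c in vivo was lost without either GV array or in vivo replicate 2 or 3, with adjusted p between 0.0696 and 0.157. In vitro it was lost without either GV array or in vitro replicate 1, with adjusted p between 0.0615 and 0.193.

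Proteins with a bacterial counterpart and those specific to mitochondria both contained genes that fell. In vivo, 10 of 27 tested large subunit genes with a counterpart and 6 of 15 without one were lower, and in the small subunit 6 of 15 and 7 of 10 were. In vitro the numbers were 11 of 27 and 4 of 15 in the large subunit and 6 of 15 and 6 of 10 in the small. As shares these were 37% and 40% in the large and 40% and 70% in the small subunit in vivo. In vitro they were 40.7% and 26.7% in the large and 40% and 60% in the small. Of all tested probe sets 11.1% were lower in vivo and 11.7% in vitro. The difference between these classes was not tested. Mrps18a, Mrps30 and Mrps36 were left out of the classes, the first 2 because their proteins are placed in the large subunit and Mrps36 because its protein has been assigned to the 2-oxoglutarate dehydrogenase complex.

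A few large subunit genes moved the other way. Of the 31 tested members with 1 probe set, 16 (51.6%) were lower and 0 higher in vivo, and 17 (54.8%) and 0 in vitro. Among all tested probe sets 11.1% were lower and 15.7% higher in vivo, and 11.7% and 16% in vitro. Every called rise was thus in a gene with several probe sets, counted through the brightest. The part of that choice was not tested. Mrpl3, a core protein with a bacterial counterpart, read 8.77 and 8.46 in GV, 10.46, 10.43 and 10.37 in adult in vivo MII, 10.17 and 10.74 in adult in vitro MII, 10.34 and 10.19 in d26 in vivo MII, 10.18, 10.84 and 10.39 in d26 in vitro MII and 10.08, 10.12 and 10.33 in d20 in vitro MII. Every MII array lay above both GV arrays, and the MII group means spanned 0.30. The rise was 1.80 (SE 0.26, adjusted p = 0.000161), or 3.49-fold, in vivo and 1.84 (SE 0.28, adjusted p = 0.000285) in vitro, and all 3 of its tested probe sets were called higher in both comparisons by limma.

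Mrpl1, the protein of the L1 stalk near the exit site for transfer RNA, read 5.05 and 5.12 in GV, 7.27, 6.19 and 6.87 in adult in vivo MII, 7.38 and 7.82 in adult in vitro MII and 6.55 to 7.69 on the arrays of younger mice. Its differences were 1.70 (SE 0.40, adjusted p = 0.00519) in vivo and 2.52 (SE 0.44, adjusted p = 0.000642) in vitro. Mrpl44, a mitochondria-specific protein with a ribonuclease III fold, read 9.21 and 9.48 in GV, 11.24, 10.02 and 10.33 in adult in vivo MII, 11.29 and 11.60 in adult in vitro MII and 10.33 to 11.57 on the others. Its differences were 1.19 (SE 0.34, adjusted p = 0.0178) and 2.10 (SE 0.38, adjusted p = 0.000796) by limma. The in vivo call of Mrpl44 was lost without either GV array or in vivo replicate 1, with adjusted p between 0.0545 and 0.139. It was also lost with its probe sets averaged (0.70, adjusted p = 0.106), with only the compared arrays in the fit (adjusted p = 0.0839) and without the intensity trend (adjusted p = 0.0593), by limma.

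In the small subunit Mrps9 was called higher after in vitro maturation only, at 6.52 and 6.29 in GV against 7.65 and 7.37 (difference 1.11, SE 0.36, adjusted p = 0.0303), and at 7.33, 7.19 and 6.90 after in vivo maturation (difference 0.73, SE 0.32, adjusted p = 0.116). The call was lost on leaving out any one of those GV or in vitro arrays, with adjusted p between 0.058 and 0.172 by limma. It was also lost without a filter (adjusted p = 0.0775), with only the compared arrays (adjusted p = 0.084) and with its probe sets averaged (0.30, adjusted p = 0.745), and the difference was -0.44 with median scaling and -1.86 as deposited. The gap between the routes was not itself called.

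The rises depended on the scaling. On the deposited intensities, without further scaling, 22 large and 15 small subunit genes were lower and 0 of 70 members were higher in vivo, and 30 large and 19 small were lower and 0 higher in vitro. Of all tested probe sets 15.5% were then lower and 0.102% higher in vivo, and 27.6% and 0.0488% in vitro. There the median of all tested probe sets was -0.98 in vivo and -1.94 in vitro, against which Mrpl3 stood at 0.46 and -0.34, Mrpl1 at -0.083 and -0.21 and Mrpl44 at 0.11 and 0.30. With arrays scaled to a common median, 26 large and 18 small subunit genes were lower and 1 was higher in vivo, and 23 large and 18 small were lower and 2 higher in vitro. All tested probe sets then had a median of -0.21 and -0.53, with 17.2% lower and 5.35% higher in vivo and 19.8% and 5.84% in vitro. Median scaling ended both calls of Mrpl1, at 0.69 (adjusted p = 0.297) and 1.20 (adjusted p = 0.0783), and the in vivo call of Mrpl44, at 0.89 (adjusted p = 0.0934), by limma. Mrpl3 in both comparisons and Mrpl44 in vitro stayed called higher with median scaling. Under the 3 scalings both GV arrays stayed above all MII arrays in the subunit medians. As deposited, the large subunit median was 9.11 and 9.23 in GV and 3.91 to 6.12 in MII.

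**Figure D3:**
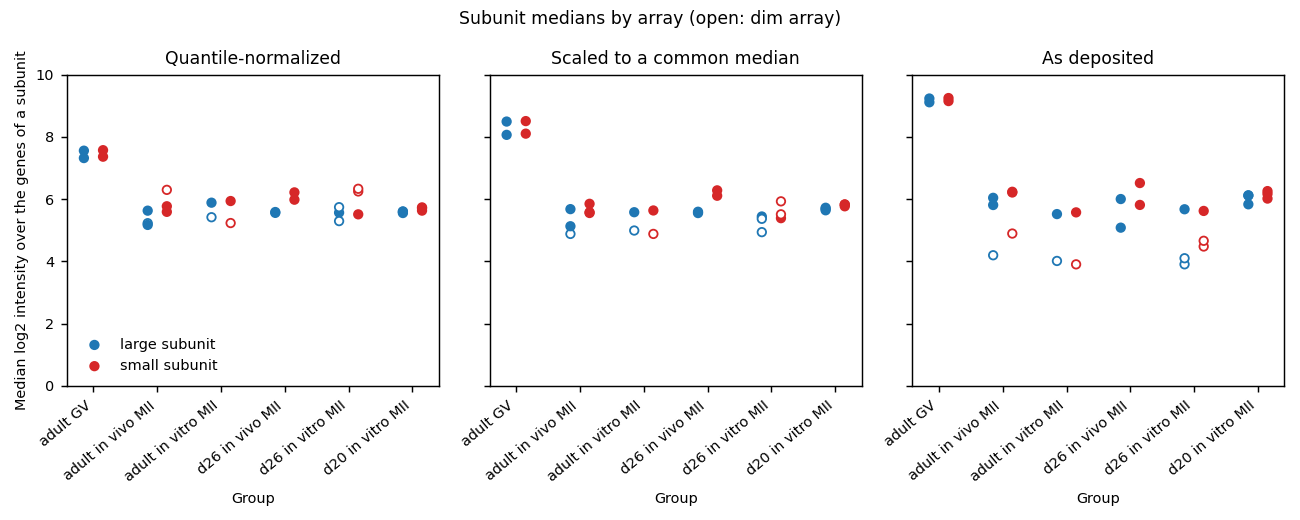
Median log2 intensity over the 47 large (blue) and 29 small (red) subunit genes on each array, by group, after quantile normalization, after scaling to a common median and as deposited; open points are the 4 dim arrays. The GV points lie above all MII points in each panel, and the dim arrays fall lowest in the deposited values.

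Several members differed little between GV and MII. Mrps26, a mitochondria-specific protein, read 5.82 and 6.18 in GV, 5.77, 6.16 and 6.17 in adult in vivo MII and 6.43 and 5.23 in adult in vitro MII, a difference of 0.04 (SE 0.55) and -0.17 (SE 0.60). Mrps5, whose bacterial counterpart acts in decoding accuracy, differed by 0.13 (SE 0.46) and 0.18 (SE 0.50), with 5.50 and 4.91 in GV. Mrps21, a small protein of the subunit platform, differed by -0.19 (SE 0.46) and -0.16 (SE 0.50), with 6.31 and 6.58 in GV. GV and MII arrays overlapped for all 3 genes. On the deposited intensities Mrps26 stood at -1.88 and -2.90 and Mrps5 at -1.58 and -2.32. The in vitro differences of Mrps26 (adjusted p = 0.0456) and Mrps21 (-3.08, adjusted p = 0.00947) were called there by limma. Mrps21 was also called with arrays scaled to a common median, at -1.42 in vivo and -1.67 in vitro (adjusted p = 0.0202 and 0.0125, limma).

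The separation of GV from all ages of MII was also counted directly. Of the 42 tested large subunit genes 20 were lower on all 13 MII arrays than on both GV arrays, and of the 28 small subunit genes 16 were, together 51.4% of members, where 15.8% of all tested probe sets behaved so. Mrpl1, Mrpl3, Mrpl44 and Mrps9, or 5.71% of members, were higher on all 13 MII arrays, against 18% of all tested probe sets. The other 30 members overlapped.

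The 6 genes below the filter were Mrpl27, Mrpl43, Mrpl46, Mrpl49, Mrpl55 and Mrps10. In each of them all 13 MII arrays lay below both GV arrays. The share of all probe sets below the filter that did so was not counted. Mrpl46 read 7.46 and 7.55 in GV and -0.09 to 4.01 in MII, and Mrpl43 read 5.89 and 5.79 in GV and -0.79 to 4.15 in MII. When all probe sets were tested without a filter, Mrpl43, Mrpl46, Mrpl55 and Mrps10 were lower in vivo and Mrpl27, Mrpl46 and Mrpl55 in vitro, with adjusted p between 0.00495 and 0.0499 by limma. Mrpl49 passed in neither (adjusted p = 0.435 and 0.558). Of all 45037 probe sets, 6.03% were called lower in vivo and 6.09% in vitro in that fit.

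**Figure D4:**
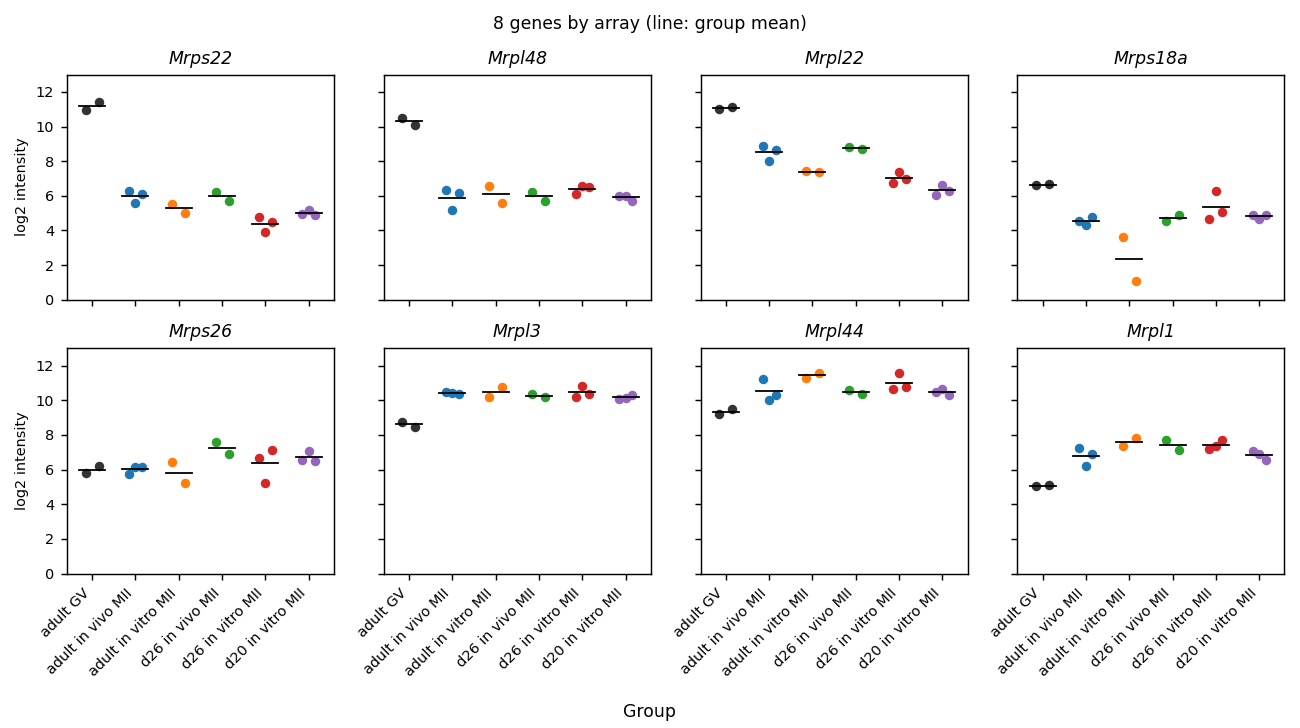
log2 intensity of 8 genes on each array by group, with the group mean as a line. Mrps22, Mrpl48, Mrpl22 and Mrps18a are highest in GV, Mrps26 overlaps between GV and MII, and Mrpl3, Mrpl44 and Mrpl1 are lowest in GV.

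Some genes gave different answers from different probe sets. Of the 29 members with several tested probe sets, 1 had all of them lower and 1 all higher in vivo, 14 had none called and 13 had some called and some not, and in 0 of them were calls opposite. In 13 of the 29 the differences had both signs. Mrpl47, above, is one of these. Mrpl48 had a further called probe set at -4.66 and an uncalled one at -0.20, and the other tested probe set of Mrpl51 stood at -0.52. Mrps25, another mitochondria-specific protein, was called lower on its brightest probe set at -1.84 and on a second at -4.36.

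In 3 members, named after their values were seen, the brightest probe set was not called and another was, in both comparisons. Mrpl58, a release factor that has become part of the ribosome, differed by 0.97 and -0.64 on the brightest and by -6.21 (adjusted p = 0.00293) and -6.42 (adjusted p = 0.00424) on the other, by limma. The brightest probe set of Mrpl58 read 2.06 and 3.95 in GV and 0.99 to 4.55 in MII. The other is dimmer by mean. It may thus have passed the filter largely through its GV readings, as Mrpl12 did, and its calls carry that limit. Mrpl35 differed by 1.09 and -1.08 on the brightest and by -3.77 (adjusted p = 0.0215) and -6.69 (adjusted p = 0.000987) on another. Mrps14 differed by 0.57 and 0.64 on the brightest and by 2.04 (adjusted p = 0.0129) and 2.74 (adjusted p = 0.00351) on another. The position of these probe sets along their transcripts was not examined.

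**Figure D5:**
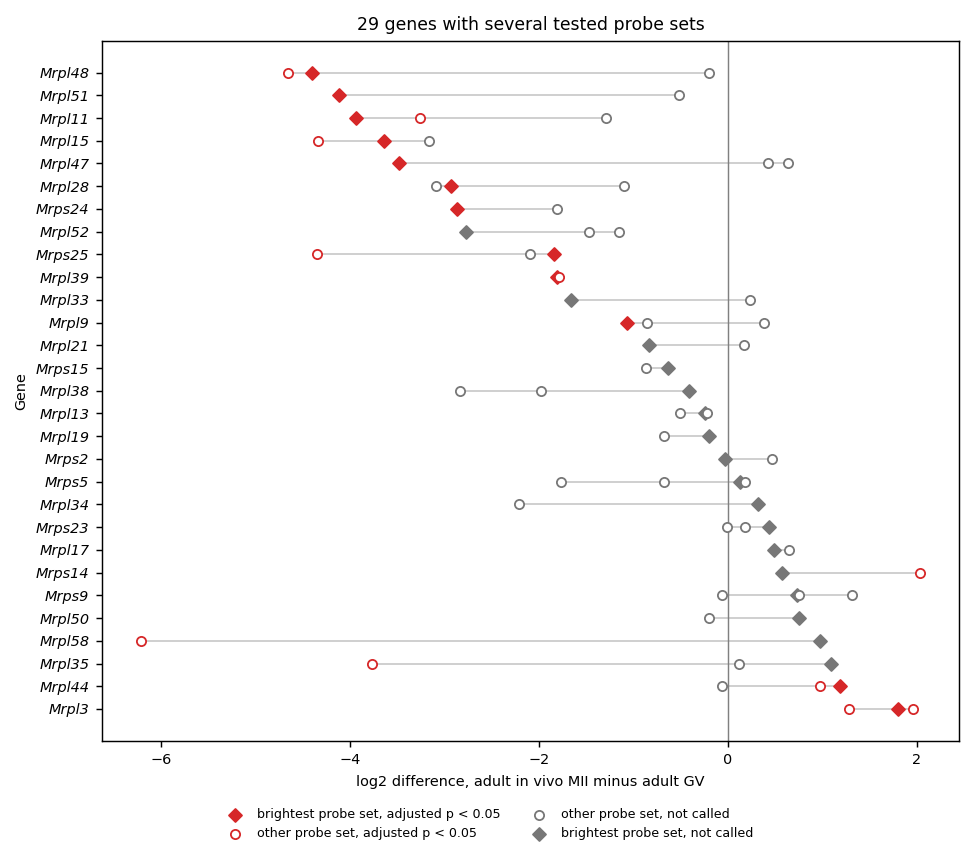
log2 difference between adult in vivo MII and GV for every tested probe set of the 29 genes with more than 1; diamonds are the brightest probe set, circles the others, red those with an adjusted p under 0.05. The spread within a gene reaches from -6.21 to 0.97 for Mrpl58, where the lower value is from the dimmer probe set.

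Components of the mitochondrial ribosome with other symbols were counted too. Of 4 tested, 3 were lower in vivo and 1 higher, and 2 were lower and 1 higher in vitro. For all tested probe sets the shares were 11.1% lower and 15.7% higher in vivo, and 11.7% and 16% in vitro. Gadd45gip1, a large subunit protein, fell by 4.28 in vivo and 6.14 in vitro on the log2 scale. Its adult in vitro readings were 4.35 and 2.28, the latter below the filter level. Dap3, a small subunit protein that binds GTP, fell by 2.03 and 2.42, and Chchd1, also of the small subunit, by 2.05 in vivo (in vitro -0.79, adjusted p = 0.355). Ptcd3, an RNA-binding small subunit protein, rose by 1.72 and 1.33 (adjusted p = 0.0057 and 0.0394, limma).

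In the rest of the mitochondrial translation system some genes were called in each direction, read here against the 11.1% lower and 15.7% higher of all tested probe sets in vivo and the 11.7% and 16% in vitro. Of 8 tested translation factors 1 was lower and 2 higher in vivo, and 1 was lower and 1 higher in vitro. Mrrf, the ribosome recycling factor, fell by 4.54 and 5.16, while Gfm1, the elongation factor that moves the ribosome along, rose by 1.57 and 1.34, and Guf1, a GTPase that acts on translocation, by 1.51 in vivo (in vitro 1.23, adjusted p = 0.125). Of 15 tested aminoacyl-tRNA synthetases 2 were lower and 0 higher in each comparison. At 12.5% for the factors and 13.3% for the synthetases, the shares lower were near those of all probe sets. Rars2, which charges arginine transfer RNA, fell by 4.44 and 6.95. Tars2 fell by 2.89 in vivo (in vitro -2.55, adjusted p = 0.0901, limma). Cars2 fell by 3.64 in vitro (in vivo -1.94, adjusted p = 0.248, limma). The adult in vitro readings of Rars2 (2.82 and -0.02) and Cars2 (1.92 and 1.02) were below the filter level. So were the readings of 2.52 and 1.59 for Tars2 in adult in vivo eggs.

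Among 21 tested genes for ribosome assembly and ribosomal RNA modification 6 were lower and 5 higher in vivo, and 6 lower and 4 higher in vitro. Malsu1, an assembly factor of the large subunit, fell by 3.51 and 2.72, Tfb1m, a methyltransferase of the small subunit ribosomal RNA, by 3.38 and 2.74, and Mterf4, which partners with an RNA methyltransferase in assembly, by 3.37 and 2.93. Gtpbp10, a GTPase of large subunit assembly, was the gene of this list that rose most in vivo, by 2.41 (2.05 in vitro). Of 17 tested genes for mitochondrial transcription and RNA handling 7 were lower and 3 higher in vivo, and 3 lower and 4 higher in vitro. Ssbp1, the single-strand binding protein of mitochondrial DNA, fell by 4.92 and 6.19, Slirp, an RNA-binding protein, by 5.19 in vivo, and its partner Lrpprc by 5.32 in vitro, whereas Pnpt1, a 3' exoribonuclease, rose by 2.67 and 3.24. For comparison, 30 of 46 tested cytosolic ribosomal protein genes were lower and 2 higher in vivo, and 31 and 2 in vitro. The counts of these 3 lists, too, are to be read against 11.1% lower and 15.7% higher of all tested probe sets in vivo, and 11.7% and 16% in vitro.

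Among the MII groups no member was called in any of 6 comparisons by limma. The largest share of all probe sets called was 0.04%, so the comparisons between MII groups called few genes of any kind. In adults 0 members differed between in vivo and in vitro maturation, where 0.00444% of all tested probe sets were called, and 10 of 70 had an unadjusted p below 0.05. At d26 the same comparison gave 0 members against 0.04% of all, and 5 with an unadjusted p below 0.05. Among eggs matured in vitro, d20 against adult gave 0 members against 0.0222% of all, d26 against adult 0 against 0.00444%, and d20 against d26 0 against 0%; the members with an unadjusted p below 0.05 numbered 13, 7 and 7. The difference between the in vivo effects at the 2 ages gave 0 members against 0% of all, and 1 with an unadjusted p below 0.05. Over all tested probe sets the numbers with an unadjusted p below 0.05 were 1801, 1531, 3971, 1654, 2581 and 840, in the same order.

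Mrpl22, which lines the tunnel through which the new peptide leaves, had the smallest p of the members in both comparisons of in vivo with in vitro eggs. It read 11.04 and 11.13 in GV, 8.86, 8.00 and 8.64 in adult in vivo MII and 8.82 and 8.72 in d26 in vivo MII. After in vitro maturation it read 7.43 and 7.36 in adults, 6.74, 7.36 and 6.97 at d26 and 6.04, 6.61 and 6.30 at d20. The in vivo eggs thus lay between GV oocytes and in vitro eggs with no overlap. The in vivo minus in vitro difference was 1.11 (SE 0.34, adjusted p = 0.446) in adults and 1.74 (SE 0.34, adjusted p = 0.0938) at d26 by limma, so neither passed. At d26 it passed with arrays scaled to a common median (2.51, adjusted p = 0.031), with array weights (1.84, adjusted p = 0.0336) and with probe sets averaged by gene (1.74, adjusted p = 0.0429), where 0.16%, 0.2% and 0.14% of all were called higher. The d26 in vivo arrays are those with a Gapdh 3' to 5' ratio of 82.3 and 68, against 12.6, 16.5 and 26.8 in d26 in vitro eggs. The adult in vivo arrays are those with the higher leukocyte and oviduct sums, while at d26 the in vivo arrays had leukocyte sums of 118 and 156 against 154, 36.2 and 48.2 in vitro, and the oviduct sums 78.3 and 124 against 111, 15.3 and 18.9. Their part in the difference was not tested.

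Ages pooled, all 5 in vivo MII arrays were higher than all 8 in vitro MII arrays for Mrpl22, Mrps22 and Mrps31, which is 4.29% of the 70 tested members, against 0.551% of all tested probe sets. No tested member was lower on all 5, against 0.275% of all. Mrpl22 read 8.00 to 8.86 in vivo and 6.04 to 7.43 in vitro, Mrps22 5.59 to 6.31 and 3.89 to 5.53, and Mrps31, a mitochondria-specific protein, 5.78 to 7.13 and 0.35 to 5.43. On the deposited intensities Mrps22 overlapped and the other two did not. This count was chosen after the values of Mrpl22 were seen, the in vitro arrays hold d20 eggs that have no in vivo counterpart, and 3 of the 8 in vitro arrays are dim against 1 of the 5 in vivo arrays. The part of age, brightness, the marker sums and the Gapdh ratio in it was not tested.

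In adults Mrps18a followed Mrpl22, with 2.19 (SE 0.69, adjusted p = 0.464), and then Mrps28, a small subunit protein with a bacterial counterpart, with 1.30 (SE 0.48, adjusted p = 0.558). Mrps28 read 7.08, 6.29 and 6.44 after in vivo and 5.94 and 4.67 after in vitro maturation. At d26 Mrps22 followed with 1.58 (SE 0.43, adjusted p = 0.339) and Mrpl37, a mitochondria-specific protein, with 3.00 (SE 0.89, adjusted p = 0.5). Mrpl37 read 5.07 and 4.96 after in vivo and 0.14, 2.09 and 3.83 after in vitro maturation, and 0.14 and 2.09 are below the filter level. Without the dim arrays the d26 difference of Mrpl37 was 5.01 (adjusted p = 0.04) and that of Mrpl38 4.53 (adjusted p = 0.0417), by limma, with 1 in vitro array left in that group, which is assumed to vary like the others.

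Between ages, Mrps18a and Mrpl16 had the smallest p in d20 against adult eggs matured in vitro. Mrps18a read 4.90, 4.67 and 4.87 at d20, 4.64, 6.25 and 5.09 at d26 and 3.63 and 1.06 in adults, a difference of 2.46 (SE 0.69, adjusted p = 0.158) for d20 and 2.98 (SE 0.69, adjusted p = 0.297) for d26. Mrpl16 read 7.02, 7.06 and 6.68 at d20, 6.48, 6.67 and 6.61 at d26 and 6.18 and 3.13 in adults, with differences of 2.27 (adjusted p = 0.175) and 1.93 (adjusted p = 0.582) by limma. In both genes the lowest adult reading was on replicate 2, a dim array, and the 1.06 of Mrps18a was below the filter level. With that array alone in the adult group, its spread taken from the other groups, the 4 differences were between 3.48 and 4.28, with adjusted p between 0.00499 and 0.0108. The same fit called 3.02% of all tested probe sets higher at d20 and 1.35% at d26, shares against which these 2 of 70 tested genes are to be read.

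Mrpl22 was lower at d20 than in adults by 1.08 (SE 0.34, adjusted p = 0.175) and Mrpl42 higher at d26 than in adults by 2.23 (SE 0.75, adjusted p = 0.54), neither of them called by limma. The adult in vitro mean of Mrpl42 was below the filter level. Between d20 and d26 the smallest p belonged to Mrps5 (1.26, SE 0.41, adjusted p = 0.414), Mrpl37 (2.31, SE 0.80, adjusted p = 0.414) and Mrps33 (-1.19, SE 0.45, adjusted p = 0.418). For the difference of the in vivo effect between adults and d26 they were Mrps18a (2.81), Mrps30 (1.23) and Mrpl54 (-2.80), with adjusted p = 1 for each by limma.

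Promoters were read from the RefSeq table of GRCm38.p6, from 250 bases before to 50 bases after each start site, for the 67 members it lists. Those of mitochondrial protein genes are known for sites of ETS factors (GABP among them), NRF1 and YY1, and 5 motifs were searched on both strands. CCGGAAG, a core of ETS sites, was in 37.3% of members and 12.9% of 17492 protein-coding genes. AAGATGGC, a core of YY1 sites, was in 17.9% and 3.57%, and CGCATGCG, within NRF1 sites, in 10.4% and 2.77%. GGGCGG, bound by SP factors, was in 50.7% and 49.2%, and TTCCCGC, a core of E2F sites, in 7.46% and 6.84%. The ETS core was in 43.5% of the 23 listed members that were lower in both comparisons, in 37% of the 27 called in neither and in 1 of the 3 that were higher in both. The median GC content was 58% in members and 56.3% in all genes. A gene with several start sites was counted once if any window held the motif.

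The 250 bases before the start site are printed for 4 members with a single listed start, chosen after their values were seen: of these, the 2 with the smallest adjusted p among the genes that fell in vivo and the 2 with the largest rise. Each is written 5' to 3' on the gene's strand, with matches to the 5 motifs, on either strand, in capitals. 
Mrps22, chr9:98601680-98601929, minus strand: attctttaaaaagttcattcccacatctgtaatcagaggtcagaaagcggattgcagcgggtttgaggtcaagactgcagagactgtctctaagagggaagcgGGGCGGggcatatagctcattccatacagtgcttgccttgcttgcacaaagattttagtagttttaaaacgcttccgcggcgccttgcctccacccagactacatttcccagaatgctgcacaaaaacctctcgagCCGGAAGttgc
Mrpl22, chr11:58171414-58171663, plus strand: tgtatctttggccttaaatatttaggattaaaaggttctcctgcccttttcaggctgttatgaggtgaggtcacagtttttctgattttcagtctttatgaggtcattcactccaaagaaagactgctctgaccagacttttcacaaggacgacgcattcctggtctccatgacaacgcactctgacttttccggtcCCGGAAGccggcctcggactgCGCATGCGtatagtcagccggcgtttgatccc
Mrpl3, chr9:105053018-105053267, plus strand: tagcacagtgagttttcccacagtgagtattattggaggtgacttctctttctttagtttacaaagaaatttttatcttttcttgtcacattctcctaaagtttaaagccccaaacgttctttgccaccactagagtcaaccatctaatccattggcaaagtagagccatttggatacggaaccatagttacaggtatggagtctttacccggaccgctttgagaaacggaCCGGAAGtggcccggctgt
Mrpl1, chr5:96209865-96210114, plus strand: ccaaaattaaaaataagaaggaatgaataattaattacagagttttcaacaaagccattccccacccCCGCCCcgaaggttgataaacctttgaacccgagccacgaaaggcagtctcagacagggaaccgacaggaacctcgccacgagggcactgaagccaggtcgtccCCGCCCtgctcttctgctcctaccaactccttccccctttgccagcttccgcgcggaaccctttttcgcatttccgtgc
The ETS core began 11 bases before the start site in Mrps22, 53 bases before it in Mrpl22 and 19 bases before it in Mrpl3, and in Mrpl22 the NRF1 motif followed it. Mrps22 and Mrpl22 fell and Mrpl3 rose, and all 3 carried it, while Mrpl1, which rose too, carried none, only a pair of SP motifs on the opposite strand. A match of letters says nothing of binding.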

How the data were processed

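Each array measured 45101 Affymetrix probe sets in a pool of oocytes. The deposited values are linear intensities, and the submitters' processing notes name MAS5. No other step of the authors' processing was stated in what was used here. After 64 control probe sets were removed, log2 intensities were quantile-normalized, and the 22519 probe sets in the upper 50% by mean over the 15 arrays (log2 level 3.07) entered a fit in limma 3.58.1 (R 4.3.3). The model had 1 coefficient for each of the 6 groups, no covariate, an intensity trend in eBayes and 9 residual degrees of freedom. The p-values were adjusted by Benjamini-Hochberg over all tested probe sets within each of 8 comparisons, and called below 0.05. The script was tested on simulated data with independent normal noise and shifts in the adult in vivo group only. That simulation did not copy the differences in brightness between the arrays or a change in GV. The number of arrays limits the precision. Genes carry the symbol of the platform annotation, which can be old; 4 probe sets that share a member's symbol with another gene were left out.

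Members and gene lists were chosen with earlier results of these data known. Named in each comparison with GV were the 8 called members that fell most, the 4 that rose most and the 3 with the smallest differences in both; in the other comparisons, the 3 with the smallest p; the 3 Mrps18 paralogs; and up to 3 genes of each other list with the largest called change. Other genes named are said to have been chosen after their values were seen, and Gtpbp10, Pnpt1, Ptcd3, Mrps25, Mrpl38, Mrpl43, Mrpl46 and Mrps31 belong to these. The alternatives tried were no scaling, median scaling, other filters, a pseudocount of 16, only the compared arrays, no trend, array weights, the number in the titles as a block of 2 levels, no dim arrays, the mean of a gene's probe sets, and leaving out each array.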

Additional observations from a re-analysis of the deposited data

How the results depend on the processing

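In both subunits and both comparisons with GV, more members were called lower than higher under every alternative tried. For the large subunit in vivo the count was 26 with median scaling and 25 with array weights, where 17.2% and 18.4% of all probe sets were lower, and 9 to 17 on leaving out single arrays. For the large subunit in vitro it was 30 as deposited and 23 with median scaling, where 27.6% and 19.8% of all were lower. Leaving out single arrays gave 8 to 15 for the small subunit in vivo and 9 to 15 in vitro. The lowest of these, 9, 8 and 9, came without GV replicate 2, which leaves 1 GV array that is assumed to vary like the other groups and brings the share of all probe sets called lower to 6.31% in vivo and 6.81% in vitro. Between in vivo and in vitro eggs at d26, 1 member was called with median scaling, with array weights and with averaged probe sets, and 2 without the dim arrays, where 0.377% of all were called; d20 against d26 gave 1 without the dim arrays, against 0.142% higher of all. In adults between the routes, and for d20 and d26 against adults, leaving out single arrays gave 0 to 2 members, the 2 being Mrpl16 and Mrps18a without adult in vitro replicate 1. There 1.8%, 3.02% and 1.35% of all probe sets were called higher.

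Differences reversed as deposited for Mrpl1 (-0.083 in vivo, -0.21 in vitro), Mrpl3 in vitro (-0.34), Mrps9 in vitro (-1.86), Mrps26 in vivo (-1.88), Mrps5 (-1.58 and -2.32), Mrpl22 in d20 against adult (0.53) and Mrps33 in d20 against d26 (0.48). With median scaling they reversed for Mrps9 in vitro (-0.44), Mrps26 in vivo (-1.11) and Mrps5 (-0.81 and -0.91). With averaged probe sets Mrps5 gave -0.53 and -0.83, without the dim arrays Mrps26 gave 0.46 in vitro, and with the title number as a block it gave -0.007 in vivo. Leaving out single arrays moved Mrps26 between -0.15 and 0.22 in vivo and between -0.77 and 0.43 in vitro, and Mrps5 between -0.15 and 0.41 and between -0.10 and 0.46. The causes were not tested, and none of the reversed values was called.

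No paired analysis was possible because the labels give no replicate numbers that samples of different groups share. The intensities reach down to 0.0425, and low readings at MII, such as those of Mrpl12, have no firm size.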
